A study of Sus scrofa with 12 samples.

Results

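The serine/threonine protein phosphatases of the PPP family and the Greatwall genes were examined in porcine oocytes maturing in vitro. A gene was a member when its pig symbol began with PPP1, PPP2, PPP3, PPP4, PPP5 or PPP6, or was ENSA, ARPP19 or MASTL. By this rule 68 of the 31908 identifiers in the expression files were members. Of these, 35 had a mean of at least 1 FPKM (a level scaled by transcript length and by library size) over the 12 libraries and were tested. Another 24 were above 0 in at least 1 library with a mean under 1 FPKM, and 9 were listed at 0 in every library. ARPP19, PPP3CC, PPP1R1C and PPP1R3E had symbols that met the rule but were not analysed here, and nor were PPP1R2, PPP1R14D, PPP1R16A, PPP1R17, PPP1R32, PPP3R2 and PPP4R1L, whose symbols had no Ensembl identifier to match.

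Oocytes came from the follicles of prepubertal gilts and were cultured inside their cumulus for 0h, 22h or 46h. The culture medium held follicular fluid, EGF and the hormones PMSG and hCG, so time and exposure to it cannot be told apart. The paper treats 0h as the germinal vesicle stage and 46h as metaphase II. It cites staging at similar times from an earlier study, where some oocytes were at other stages. No selection by stage is described for these pools. At each time the oocytes were stripped of cumulus cells, pooled and amplified by SMART-Seq2 from an oligo-dT primer, giving 4 libraries per stage. The labels call the middle time 22h, whereas the text deposited with the series calls it 24h. They do not say whether the replicates came from separate cultures, so the p-values measure only the spread between these libraries.

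PPP phosphatases build many enzymes from a few catalytic subunits, which are directed to their substrates by exchangeable regulatory subunits. Protein phosphatase 1 (PP1) pairs a catalytic subunit with a targeting or inhibitory protein, whereas PP2A joins a catalytic C subunit and a scaffold A subunit to a regulatory B subunit of the B55, B56 or B double prime type. In dividing cells the Greatwall kinase, encoded by MASTL, phosphorylates the small proteins ENSA and ARPP19, which then bind and inhibit PP2A holding a B55 subunit and so protect the phosphorylations made by CDK1. In oocytes this module is known for its part in entry into and stay in M phase.

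The catalytic subunits are shown first by their own sequence, because the genes compared here are close relatives and reads from them could be confused. Each stretch below is coding sequence of pig RefSeq on the Sscrofa11.1 assembly, 36 bases long, and the 18 capitals encode the family's metal-binding signature at the active site.
PPP1CB: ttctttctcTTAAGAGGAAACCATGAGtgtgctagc
PPP1CC: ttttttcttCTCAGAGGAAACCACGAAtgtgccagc
PPP2CA: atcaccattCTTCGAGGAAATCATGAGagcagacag
PPP2CB: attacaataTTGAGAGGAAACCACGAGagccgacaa
PPP4C: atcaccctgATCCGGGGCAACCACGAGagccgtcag
PPP6C: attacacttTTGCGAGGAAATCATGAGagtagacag
The stretches lie at chr3:110454715-110454750 for PPP1CB, chr14:32078769-32078804 for PPP1CC and chr2:136504772-136504807 for PPP2CA, all on the minus strand. They lie at chr15:54312548-54312583 for PPP2CB and chr3:18269741-18269776 for PPP4C on the plus strand, and at chr1:265878984-265879019 for PPP6C on the minus strand. Each lies within a single coding exon. Between PPP2CA and PPP6C 16 of the 18 capitals were the same, and between PPP2CA and PPP2CB 13 were. Over the whole coding sequence PPP2CA and PPP2CB were 81.9% identical, PPP1CB and PPP1CC 75.0%, and PPP2CA and PPP6C 62.7%. The longest run of bases shared by the transcripts of PPP2CA and PPP2CB was 26, and it was 18 for PPP1CB and PPP1CC.

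The substrate ENSA of Greatwall is shown for the site that the kinase modifies. In the 36 bases of the pig RefSeq coding sequence below, the 18 capitals encode the stretch around the serine that Greatwall phosphorylates, and the same stretch of ARPP19 is given beside it.
ENSA: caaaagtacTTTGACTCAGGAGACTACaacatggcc
ARPP19: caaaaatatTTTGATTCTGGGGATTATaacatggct
The ENSA stretch lies at chr4:98531294-98531329 and the ARPP19 stretch at chr1:119152336-119152371, both on the plus strand. They shared 13 of the 18 capitals, the coding sequences were 71.4% identical, and the longest shared run of bases in the transcripts was 17.

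The libraries held the transcripts of oocytes. All 16 oocyte markers matched were tested, and their summed level ranged from 34628 to 45496 FPKM at 0h, from 42752 to 56641 at 22h and 42592 to 48711 at 46h. Single markers moved within that sum, with 10 of the 16 called lower and 2 higher at 46h than at 0h (39.1% and 16.8% of all genes tested), and BTG4 alone went from 15762 ± 1507 to 28330 ± 1878 FPKM. Of 19 cumulus and granulosa markers matched, LHCGR, INHA, AMHR2, NR5A1, KRT8 and KRT18 were listed at 0 in every library. The summed level of this list was between 37.5 and 86.2 FPKM at 0h, between 52.9 and 83.0 at 22h and between 111 and 140.2 at 46h, and most of that was VCAN, with 58.3 ± 22.2, 65.0 ± 14.2 and 126 ± 14.4 FPKM at those stages. Of 7 blood and immune markers matched, CD68, CD14, HBB and HBM were listed at 0 in every library. The summed level of this list was between 10.26 and 15.02 FPKM at 0h, 8.78 and 26.0 at 22h, and 25.1 and 27.6 at 46h, and PECAM1 rose within it from 9.29 ± 1.36 to 22.1 ± 1.14 FPKM (log2 fold change 1.17, limma adjusted p = 0.00239). The part of cumulus or blood cell RNA in the results was not tested. Within the stages, the correlation across genes was weakest for replicate 4 of 0h (r of 0.934 to 0.970 with its fellow libraries). Total FPKM ranged from 697468 to 802184, and the depth of the libraries is unknown because FPKM carries no read counts. A change in the length of poly(A) tails and a change in transcript number cannot be told apart in these libraries, and neither can less RNA per oocyte and fewer oocytes in a pool.

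The members' share of total FPKM lay between 0.0869% and 0.118% at 0h, between 0.110% and 0.131% at 22h, and between 0.135% and 0.142% at 46h. Between 0h and 46h, 16 of the 35 members tested passed the thresholds of an adjusted p under 0.05 and a fold change over 1.5 in limma, 8 of them higher and 8 lower. Over all 7013 genes tested, 55.9% passed, 16.8% higher and 39.1% lower. MASTL, PPP1CC, PPP1R12A, PPP2CB, PPP2R1B, PPP2R5A, PPP4R3B and PPP6C were higher, whereas ENSA, PPP1R7, PPP1R11, PPP1R13B, PPP1R21, PPP2R2A, PPP2R2B and PPP4C were lower. In 7 members every 46h library was above every 0h library and in 7 every 46h library was below, against 18.2% and 39.2% of all genes tested.

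The members called at 46h against 0h were 45.7% of those tested, 22.9% in each direction, and were not tested as a group against the background. The median log2 fold change of the members was 0.13, beside -0.25 over all genes tested. The split into higher and lower members moved with the scaling of the libraries. Under median-of-ratios scaling, which sets the median of all genes to 0.0029, 11 members were higher and 6 lower, and under quantile normalization, which moves it to 0.37, 21 were higher and 5 lower. The median of ratios added PPP1CB, PPP1R35 and PPP2R3C as higher, at 0.66 to 0.89. Quantile normalization added these and also PPP1CA, PPP1R3D, PPP1R8, PPP1R9A, PPP2CA, PPP3R1, PPP4R2, PPP4R3A, PPP4R4 and PPP6R3, at 0.59 to 1.05. Without replicate 4 of 0h, 10 were higher and 8 lower, with PPP1CB and PPP1R14B gained. The shares of all genes called are given only for the fit without these changes. The counts of members under the alternatives therefore cannot be compared with those of other genes.

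At 22h against 0h, 7 of the 35 members passed, 5 higher and 2 lower, where 26.7% of all genes passed, 7.84% higher and 18.9% lower. PPP1CB, PPP2CB, PPP2R1B, PPP2R5A and PPP6C were higher and PPP1R7 and PPP1R13B were lower. Quantile normalization added PPP4R3B as higher (0.61), and median-of-ratios scaling took PPP2R5A away (0.58). At 46h against 22h, 12 passed, 5 higher and 7 lower, where 42.4% of all genes passed, 9.87% higher and 32.6% lower. MASTL, PPP1R8, PPP1R12A, PPP2R3C and PPP6C were higher there, and ENSA, PPP1R7, PPP1R11, PPP1R13B, PPP2R2A, PPP2R2B and PPP4C were lower. The split of the later interval was 10 higher and 5 lower under median-of-ratios scaling, and 13 higher and 4 lower under quantile normalization. These scalings moved the median of all genes from -0.26 to -0.0081 and 0.21. The shares of all genes called under them are not given here, so these splits are not set beside other genes. Both scalings added PPP1CA, PPP1CC, PPP1R35, PPP2CB and PPP4R3B as higher in that interval, at 0.60 to 1.08, and quantile normalization also added PPP2R5A, PPP4R3A and PPP6R3. The medians of the members were 0.14 and -0.06 in these intervals, beside -0.0012 and -0.26 over all genes. The members' median at 22h against 0h was 0.020 without replicate 1 of 0h and 0.022 without replicate 4 of 0h. Without replicate 4 of 0h, 7 members passed at 22h against 0h and 13 at 46h against 22h. Altogether 19 members passed in at least 1 comparison, as did 63.7% of all genes tested, and 3 members, PPP1R7, PPP1R13B and PPP6C, passed in all 3, as did 13.5% of all genes tested.

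**Figure D1:**
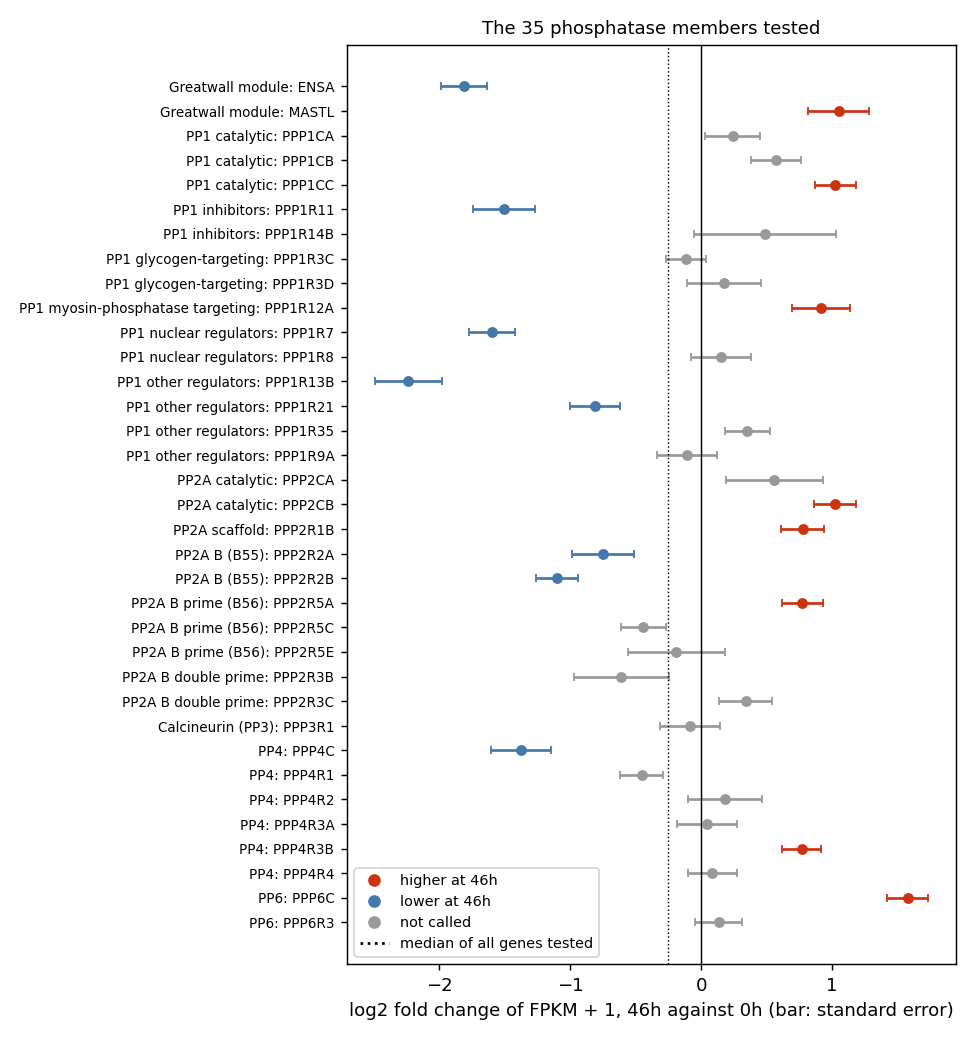
Log2 fold change of FPKM + 1 at 46h against 0h for the 35 members tested (horizontal axis), grouped by role (vertical axis). Points are limma estimates, bars are standard errors, colours mark the call, and the dotted line is the median of all genes tested at -0.25. PPP6C stands at 1.58, the highest, and PPP1R13B at -2.23, the lowest.

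The Greatwall kinase and its substrate ENSA moved in opposite directions. MASTL (ENSSSCG00000011065) was at 53.9, 46.5, 42.7 and 23.0 FPKM in the 4 libraries of 0h, at 36.4, 52.6, 50.6 and 55.6 at 22h, and at 84.5, 74.9, 90.6 and 83.2 at 46h. All 46h libraries lay above all earlier ones, while 0h and 22h overlapped and replicate 4 of 0h was the lowest of all. The log2 fold change was 1.05 (SE 0.23, limma adjusted p = 0.00120) at 46h against 0h and 0.77 (limma adjusted p = 0.0130) against 22h. Without replicate 4 of 0h the former was 0.80, still past the thresholds.

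ENSA (ENSSSCG00000006653) was at 10.4, 8.62, 7.64 and 8.29 FPKM at 0h, at 8.09, 8.15, 12.9 and 8.48 at 22h, and at 1.44, 1.96, 1.53 and 2.21 at 46h. The 46h libraries were all below the earlier ones, and replicate 3 of 22h stood above the other 22h libraries. ENSA fell by 1.81 on the log2 scale between 0h and 46h (SE 0.18, limma adjusted p = 5.76e-07), and by 1.89 between 22h and 46h (limma adjusted p = 7.46e-07). Both genes kept their calls under every alternative run for the comparisons with 46h. The ratio of MASTL to ENSA in FPKM ranged between 2.77 and 5.59 at 0h, between 3.91 and 6.55 at 22h, and between 37.6 and 59.2 at 46h. That the 46h ratios did not overlap with the others follows from the separation of each gene and is no further result.

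**Figure D2:**
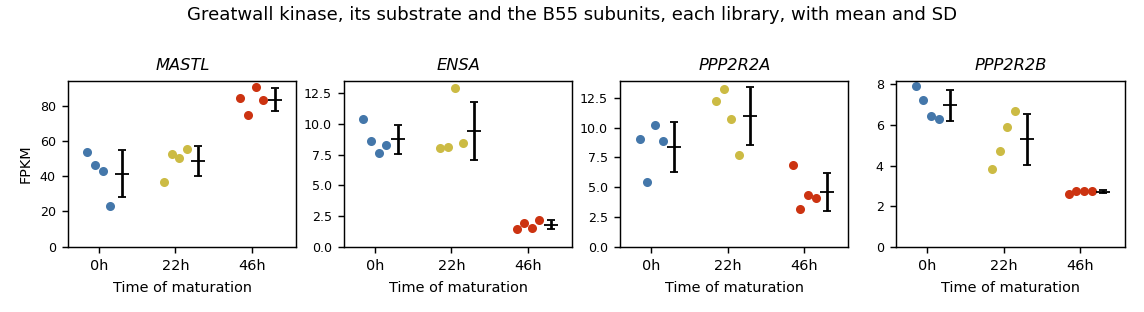
FPKM (vertical axis, from 0, a scale for each gene) of MASTL, ENSA, PPP2R2A and PPP2R2B against time of maturation (horizontal axis). Points are the 4 libraries of each stage in the order of their numbers, and bars are mean and SD. All 46h libraries lie above the others for MASTL (74.9 to 90.6) and below them for ENSA (1.44 to 2.21).

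B55 subunits direct PP2A to substrates of CDK1 and are the target of phosphorylated ENSA. Both of those tested were lower at 46h, as were 39.1% of all genes tested against 0h and 32.6% against 22h. PPP2R2A (B55 alpha) was at 9.01, 5.39, 10.2 and 8.85 FPKM at 0h, at 12.3, 13.2, 10.7 and 7.66 at 22h, and at 6.87, 3.16, 4.36 and 4.06 at 46h. Each 46h library was below each 22h library, but replicate 1 of 46h was above replicate 2 of 0h. PPP2R2A fell by 1.11 between 22h and 46h on the log2 scale (SE 0.23, limma adjusted p = 0.00141) and by 0.75 between 0h and 46h (limma adjusted p = 0.0122). The latter call was lost when the libraries were scaled by the median of ratios (-0.47) or quantile-normalized (-0.08).

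PPP2R2B (B55 beta) was at 7.90, 7.22, 6.46 and 6.27 FPKM at 0h, at 3.82, 4.73, 5.89 and 6.69 at 22h, and at 2.6, 2.75, 2.74 and 2.72 at 46h. Its 46h libraries were the lowest of the 12 and nearly the same as each other. PPP2R2B fell by 1.10 between 0h and 46h (SE 0.16, limma adjusted p = 3.43e-05) and by 0.74 between 22h and 46h (limma adjusted p = 0.00169). The 46h against 0h change was -0.40 under quantile normalization and no longer passed. The 46h against 22h change was -0.49 under median-of-ratios scaling and -0.23 under quantile normalization, neither of which passed. PPP2R2C (B55 gamma) was listed at 0 in every library. PPP2R2D, a further B55 gene, matched no identifier and was not measured, so the sum below is not that of all B55 genes. The median of the summed level of PPP2R2A and PPP2R2B was 15.9 FPKM at 0h, 16.3 at 22h and 6.94 at 46h.

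By the median of the 0h libraries, the catalytic subunits of PP2A had the highest level of the phosphatase enzymes. It was 123 FPKM over both genes, beside 61.4 FPKM for the PP1 catalytic genes. The ranges overlapped, with a lowest value of 62.7 FPKM for PP2A and a highest of 67.2 FPKM for PP1. PPP2CA (C alpha) was at 119.97, 123.95, 80.43 and 38.53 FPKM at 0h, at 50.3, 110.5, 136 and 153 at 22h, and at 102, 121, 131 and 137 at 46h. Replicate 4 of 0h and replicate 1 of 22h were the low libraries, and the 3 stages overlapped. Between 0h and 46h its log2 fold change was 0.56 (SE 0.37, limma adjusted p = 0.204). Without replicate 4 of 0h it was 0.20, and under quantile normalization it was 0.94 and passed.

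PPP2CB (C beta) was at 21.5, 19.7, 24.3 and 24.2 FPKM at 0h, at 31.3, 39.4, 33.0 and 35.4 at 22h, and at 59.3, 42.8, 44.7 and 40.9 at 46h. Each stage lay wholly above the one before it. PPP2CB rose by 1.02 between 0h and 46h (SE 0.16, limma adjusted p = 5.77e-05) and by 0.61 between 0h and 22h (limma adjusted p = 0.00973). The latter was 0.55 without replicate 2 of 0h or without replicate 2 of 22h and then missed the fold threshold. PPP2CB made up between 13.7% and 38.6% of the FPKM of both genes at 0h, between 18.7% and 38.4% at 22h and between 23.0% and 36.8% at 46h, so that the stages overlapped.

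By FPKM, the transcripts for the scaffold that joins the PP2A subunits were almost wholly those of PPP2R1B (A beta), and protein was not measured. PPP2R1B was at 137, 111, 135 and 111 FPKM at 0h, at 268, 242, 210.1 and 221 at 22h, and at 266, 206, 207 and 176 at 46h. The 22h and 46h libraries overlapped, and all of them were above the 0h libraries. PPP2R1B rose by 0.92 between 0h and 22h (SE 0.16, limma adjusted p = 0.000849) and stood 0.78 above 0h at 46h (limma adjusted p = 0.000869). PPP2R1A (A alpha) ranged from 0.16 to 1.17 FPKM over the 12 libraries, and PPP2R1B held between 99.4% and 99.9% of the scaffold FPKM in each library.

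The other regulatory B subunits moved in several ways. PPP2R5A (B56 alpha) was at 0.21, 0.55, 0.81 and 0.74 FPKM at 0h, at 1.38, 1.06, 1.31 and 1.75 at 22h, and at 1.82, 1.67, 1.5 and 1.68 at 46h, with no overlap between 0h and either later stage. Its log2 fold change was 0.60 at 22h against 0h (limma adjusted p = 0.0102) and 0.77 at 46h against 0h (SE 0.16, limma adjusted p = 0.000605). The former lay at the threshold and was lost under median-of-ratios scaling, at 0.58, without replicate 1 of 0h, at 0.48, or without replicate 4 of 22h, at 0.53. At levels this near the pseudocount the log2 values understate the change.

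PPP2R5C (B56 gamma) was at 10.7 ± 2.33 FPKM at 0h, 11.6 ± 1.3 at 22h and 7.48 ± 0.97 at 46h, and all 46h libraries were below all 22h libraries. Its change of -0.58 on the log2 scale between 22h and 46h (SE 0.17, limma adjusted p = 0.0132) was just within the fold threshold, and it passed, at -0.59 to -0.64, without replicate 1 or 4 of 22h or replicate 1 or 2 of 46h, at -0.63 with a pseudocount of 0.1 and at -0.67 in TPM, which gives every library the same total. Under median-of-ratios scaling it was -0.29 and under quantile normalization -0.06, and neither passed. At 46h against 0h it was -0.44 (limma adjusted p = 0.0381) and 0.23 under quantile normalization, so its sign depended on the scaling. That scaling moved the median of all genes from -0.25 to 0.37, and PPP2R5C lay below the median with either. PPP2R5E (B56 epsilon) was at 8.84 ± 5.79, 10.5 ± 3.78 and 6.90 ± 2.69 FPKM, and it passed in no comparison. PPP2R5D (B56 delta), under the filter, was at 0.43, 0.25, 1.05 and 2.11 FPKM at 0h and at 0.00, 0.20, 0.05 and 0.00 at 46h, without overlap (exact two-sided permutation test, p = 0.0286, the smallest that 4 against 4 libraries can give). PPP2R5B (B56 beta) did not exceed 0.36 FPKM in any library.

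Of the B double prime subunits, PPP2R3C was the abundant member. It was at 143.4, 143.2, 99.3 and 83.8 FPKM at 0h, at 67.1, 89.5, 98.2 and 103.6 at 22h, and at 130.5, 140.6, 151 and 159.5 at 46h. The 46h libraries were above the 22h libraries and overlapped with those of 0h. PPP2R3C rose by 0.71 between 22h and 46h (SE 0.20, limma adjusted p = 0.00988), and by 0.58 without replicate 1 of 22h, which did not pass. PPP2R3B was at 5.44 ± 4.42, 5.28 ± 1.23 and 2.62 ± 0.75 FPKM and passed in no comparison, with 1.78 FPKM in replicate 2 and 11.7 in replicate 4 of 0h. Without replicate 2 of 0h its log2 fold change at 46h was -0.93 and passed, and its fall of 0.79 from 22h to 46h passed without replicate 2 or without replicate 4 of 0h, and also when only the 22h and 46h libraries, which did not overlap, were fitted (limma adjusted p = 0.00535). PPP2R3A was at 0.51 to 0.77 FPKM at 0h and at 0.27 to 0.49 at 46h, without overlap (exact two-sided permutation test, p = 0.0286).

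The catalytic subunits of PP6 and PP4, both close to that of PP2A, moved in opposite directions between 0h and 46h. PPP6C (ENSSSCG00000005600), the catalytic subunit of PP6, was at 53.1, 56.3, 53.9 and 43.1 FPKM at 0h, at 71.1, 95.5, 81.0 and 83.6 at 22h, and at 149.8, 163, 135 and 175 at 46h. Each stage lay wholly above the one before it. PPP6C rose by 0.67 between 0h and 22h (limma adjusted p = 0.00479), by 0.90 between 22h and 46h (limma adjusted p = 0.000246) and by 1.58 between 0h and 46h (SE 0.15, limma adjusted p = 6.1e-07). It passed in all 3 comparisons under every alternative run. Of the summed FPKM of the 10 catalytic genes measured, the share of PPP6C lay between 20.2% and 24.4% at 0h, between 22.6% and 29.3% at 22h, and between 31.8% and 38.9% at 46h.

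The PP6 regulatory subunits were at low levels. PPP6R3 was at 1.76 ± 0.52 FPKM at 0h, 1.59 ± 0.31 at 22h and 2.02 ± 0.49 at 46h, and its log2 fold change between 0h and 46h was 0.13 (SE 0.18, limma adjusted p = 0.538). Under quantile normalization PPP6R3 was 0.83 above 0h and 0.75 above 22h at 46h, and both passed. PPP6R2 did not exceed 0.44 FPKM and PPP6R1 did not exceed 0.05 FPKM in any library. The difference between the changes of PPP6C and PPP6R3 was not tested.

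PPP4C, the catalytic subunit of PP4, was at 2.28, 2.47, 3.03 and 2.17 FPKM at 0h, at 1.87, 0.46, 2.36 and 1.27 at 22h, and at 0.09, 0.26, 0.39 and 0.67 at 46h. All 46h libraries were below all 0h libraries, whereas replicate 2 of 22h fell among the 46h values. PPP4C fell by 1.38 between 0h and 46h (SE 0.23, limma adjusted p = 0.000114) and by 0.83 between 22h and 46h (limma adjusted p = 0.00826). Under quantile normalization the former was -0.64 and still passed, whereas the latter was -0.24 and did not pass. At levels this near the pseudocount these sizes depend on it. The change from 0h to 22h was -0.55 (limma adjusted p = 0.0843), and -0.71 without replicate 3 of 22h, which passed.

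The regulatory subunits of PP4 that were tested were at higher FPKM than PPP4C at 46h. PPP4R4 was at 42.4 ± 9.94, 46.1 ± 5.07 and 44.3 ± 5.63 FPKM at 0h, 22h and 46h, and PPP4R2 was at 13.7 ± 6.03, 18.1 ± 5.50 and 14.9 ± 3.49 FPKM. Neither passed in any comparison. PPP4R3B (SMEK2) rose by 0.77 between 0h and 46h (SE 0.15, limma adjusted p = 0.000461), from 3.50, 3.30, 2.99 and 3.65 FPKM to 7.12, 7.90, 5.0 and 5.93 FPKM, without overlap. Already by 22h PPP4R3B stood 0.45 above 0h on the log2 scale, again without overlap (limma adjusted p = 0.0357), within the fold threshold. Its relative PPP4R3A was at 3.41 ± 0.75, 3.06 ± 0.89 and 3.66 ± 1.52 FPKM and did not pass. PPP4R1 changed by -0.45 on the log2 scale between 0h and 46h (limma adjusted p = 0.0252), which missed the fold threshold and was 0.24 under quantile normalization. PPP4R3C did not exceed 0.19 FPKM.

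Of the PP1 catalytic genes, PPP1CC was higher at 46h than at 0h and PPP1CB was higher at 22h. PPP1CC (PP1 gamma) was at 29.0, 21.2, 24.8 and 30.2 FPKM at 0h, at 32.0, 41.1, 35.2 and 40.6 at 22h, and at 57.8, 53.6, 57.0 and 48.3 at 46h. Each stage lay above the one before it without overlap. PPP1CC rose by 1.02 between 0h and 46h (SE 0.16, limma adjusted p = 5.43e-05), with 0.49 (limma adjusted p = 0.0283) and 0.53 (limma adjusted p = 0.0119) in the 2 intervals, both within the fold threshold. The later of these passed without replicate 4 of 46h, at 0.59, under median-of-ratios scaling, at 0.85, and under quantile normalization, at 0.93.

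PPP1CB (PP1 beta) was at 34.9, 28.0, 31.3 and 36.1 FPKM at 0h, at 53.5, 68.5, 47.6 and 53.6 at 22h, and at 44.0, 35.9, 54.5 and 64.9 at 46h. The 22h libraries were above those of 0h, and the 46h libraries were widely spread. PPP1CB rose by 0.75 between 0h and 22h (SE 0.19, limma adjusted p = 0.00879). By 46h the log2 fold change from 0h was 0.57 (limma adjusted p = 0.0178), just under the fold threshold. It was past the threshold under median-of-ratios scaling (0.89), under quantile normalization (1.05) and without replicate 4 of 0h (0.62). It also passed without replicate 1 of 0h, replicate 1 of 46h or replicate 2 of 46h, at up to 0.71. PPP1CC held a median of 43.8% of the FPKM of the PP1 catalytic genes at 0h, 39.8% at 22h and 53.2% at 46h, and its range at 46h (42.3% to 58.6%) took in that at 0h (42.6% to 45.0%). PPP1CA (PP1 alpha) was at 1.05 ± 0.49, 0.69 ± 0.21 and 1.44 ± 0.62 FPKM and passed in no comparison, although its rise from 22h to 46h was 0.62 without replicate 1 of 46h and 0.61 without replicate 4 of 46h, and then passed.

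**Figure D3:**
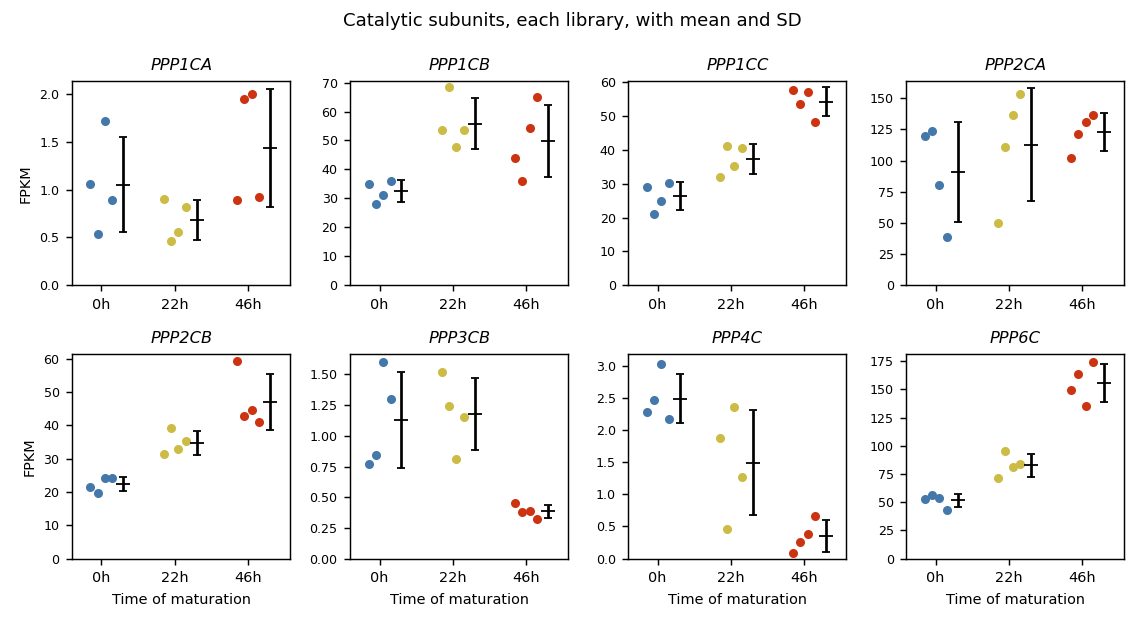
FPKM (vertical axis, from 0, a scale for each gene) of 8 catalytic subunit genes against time of maturation (horizontal axis). Points are the 4 libraries of each stage in the order of their numbers, and bars are mean and SD. PPP6C, PPP2CB and PPP1CC step up at each stage, PPP2CA spreads from 38.5 to 124 FPKM at 0h, and PPP4C and PPP3CB are at their lowest at 46h.

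Among the partners of PP1, PPP1R12A (MYPT1), the targeting subunit of myosin phosphatase, was higher at 46h. It was at 29.5, 49.9, 30.8 and 23.2 FPKM at 0h, at 26.8, 33.3, 30.7 and 34.9 at 22h, and at 58.0, 61.4, 49.5 and 80.2 at 46h. Replicate 2 of 0h overlapped with the lowest 46h library, and the 22h libraries did not. PPP1R12A rose by 0.95 between 22h and 46h (SE 0.22, limma adjusted p = 0.00263) and stood 0.91 above 0h at 46h (limma adjusted p = 0.00221). Its relatives PPP1R12B, PPP1R12C and PPP1R16B did not exceed 0.60 FPKM.

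PPP1R7 (SDS22), a leucine-rich repeat partner of PP1, was lower at each stage than at the one before. It was at 18.5, 24.3, 20.5 and 28.9 FPKM at 0h, at 13.1, 10.7, 13.7 and 10.99 at 22h, and at 8.0, 5.66, 7.96 and 6.05 at 46h, with no overlap. PPP1R7 fell by 0.86 between 0h and 22h (limma adjusted p = 0.00227), by 0.73 between 22h and 46h (limma adjusted p = 0.00340) and by 1.60 between 0h and 46h (SE 0.18, limma adjusted p = 2.11e-06). The change from 22h to 46h was -0.45 under median-of-ratios scaling and -0.24 under quantile normalization, and was called in neither.

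PPP1R13B (ASPP1), which binds p53 as well as PP1, was at 13.1, 8.89, 17.1 and 20.7 FPKM at 0h, at 8.63, 3.63, 7.72 and 5.36 at 22h, and at 2.11, 1.92, 2.52 and 2.5 at 46h. The stages did not overlap, although the lowest 0h and the highest 22h library lay close. PPP1R13B fell by 2.23 between 0h and 46h (SE 0.26, limma adjusted p = 3.48e-06), and by 1.12 in each interval (limma adjusted p = 0.00499 and 0.00267).

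PPP1R11 (inhibitor-3) was at 1.46, 1.28, 1.69 and 3.94 FPKM at 0h, at 1.0, 0.89, 1.92 and 2.0 at 22h, and at 0.00, 0.00, 0.07 and 0.08 at 46h. The 46h libraries were all below the others, and replicate 4 of 0h was apart from the other 0h libraries. On the log2(FPKM + 1) scale PPP1R11 fell by 1.5 between 0h and 46h (SE 0.23, limma adjusted p = 6.31e-05), and by 1.25 without replicate 4 of 0h. Under quantile normalization this change was -0.77 and still passed. With 2 of the 46h libraries listed at 0, the size of the fall depends on the pseudocount.

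PPP1R21, an endosomal protein with a PP1 binding motif, fell by 0.81 between 0h and 46h (SE 0.19, limma adjusted p = 0.00205), from 8.28, 6.97, 9.70 and 13.9 FPKM to 5.26, 4.63, 5.32 and 4.60 FPKM. Its call was lost under median-of-ratios scaling (-0.52) and under quantile normalization (-0.17). Between 22h and 46h PPP1R21 changed by -0.58 (limma adjusted p = 0.0219), within the fold threshold, and it passed, at up to -0.64, without replicate 2, 3 or 4 of 22h or replicate 1 or 3 of 46h, at -0.66 with a pseudocount of 0.1 and at -0.68 in TPM. It was -0.47 without replicate 1 of 22h, -0.30 under median-of-ratios scaling and -0.09 under quantile normalization, none of which passed. PPP1R8 (NIPP1), a nuclear inhibitor that binds splicing factors, was at 7.79 ± 2.02 FPKM at 0h, 5.09 ± 1.70 at 22h and 8.70 ± 1.84 at 46h. The 22h and 46h libraries of PPP1R8 overlapped, with 6.97 FPKM in replicate 2 of 22h and 6.51 in replicate 3 of 46h. The rise of 0.69 between 22h and 46h (log2 scale, SE 0.23, limma adjusted p = 0.0219) did not pass without replicate 3 of 22h (0.58), replicate 4 of 22h (0.57), replicate 2 of 46h (0.61) or replicate 4 of 46h (0.63), or when no filter was placed on low values. Its change of -0.54 from 0h to 22h (limma adjusted p = 0.0849) was -0.69 without replicate 2 of 22h and then passed.

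**Figure D4:**
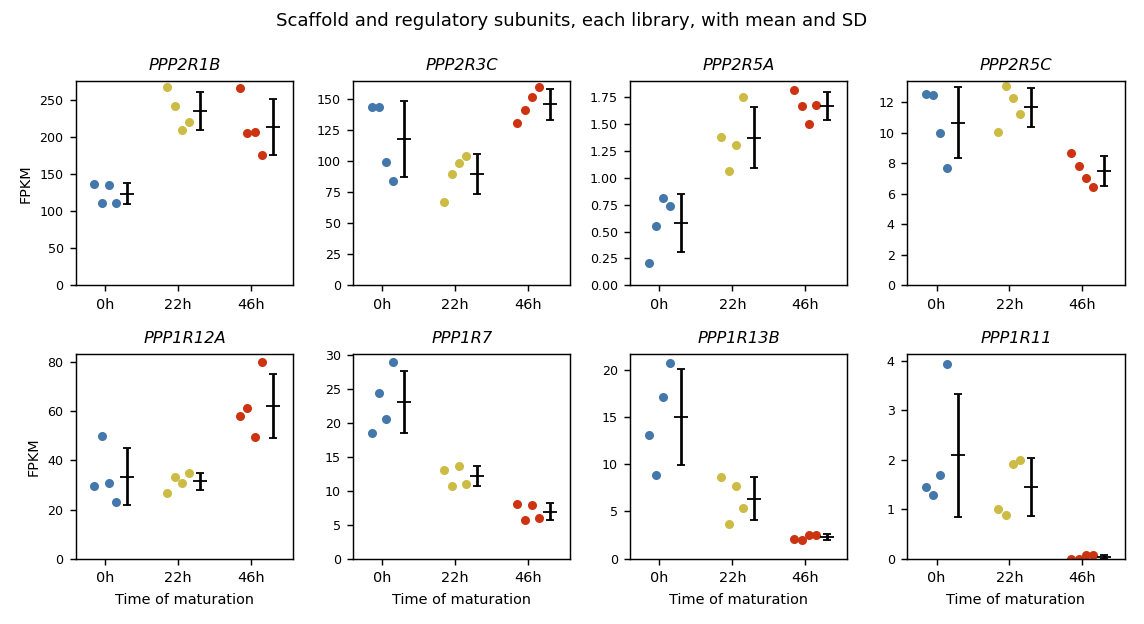
FPKM (vertical axis, from 0, a scale for each gene) of 8 scaffold and regulatory subunit genes against time of maturation (horizontal axis). Points are the 4 libraries of each stage in the order of their numbers, and bars are mean and SD. PPP1R7 steps down at each stage, PPP2R1B is above 0h at both later stages, and PPP1R11 is at or below 0.08 FPKM in the 46h libraries.

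Of the other PP1 members tested, PPP1R14B, PPP1R3C, PPP1R3D, PPP1R9A and PPP1R35 passed in no comparison. PPP1R35 was past the thresholds at 46h against 0h and against 22h under median-of-ratios scaling (0.66 and 0.68) and under quantile normalization (0.96 and 0.83). PPP1R3D (0.87) and PPP1R9A (0.59) passed at 46h against 0h under quantile normalization. PPP1R14B, an inhibitor of PP1, was at 1.88, 3.43, 5.53 and 22.7 FPKM at 0h, with replicate 4 far above the others. Without that library its log2 fold change between 0h and 46h was 1.10 (limma adjusted p = 0.0263), in place of 0.49 (limma adjusted p = 0.450) with it. The glycogen-targeting subunits PPP1R3A, PPP1R3B, PPP1R3F and PPP1R3G were listed at 0 in every library, as were PPP1R9B, PPP1R14A, PPP1R26 and PPP1R42. PPP1R15A and PPP1R15B, which direct PP1 to the translation factor eIF2 alpha, did not exceed 1.40 and 0.16 FPKM. PPP1R10 (PNUTS), a nuclear targeting subunit, went from between 0.64 and 0.89 FPKM at 0h through 0.36 to 0.47 at 22h and then 0.13 to 0.32 by 46h, without overlap between any stages (exact two-sided permutation test, p = 0.0286 in each comparison).

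Calcineurin (PP3) is the calcium-dependent phosphatase that acts at egg activation in some animals. Its genes analysed here were low, and PPP3CC and PPP3R2 were not analysed. PPP3CB, a catalytic subunit, was at 0.77, 0.84, 1.60 and 1.3 FPKM at 0h, at 1.52, 1.24, 0.81 and 1.15 at 22h, and at 0.45, 0.38, 0.39 and 0.32 at 46h. The 46h libraries were below all others (exact two-sided permutation test, p = 0.0286 against 0h and against 22h). PPP3CA did not exceed 0.12 FPKM, and the regulatory subunit PPP3R1 was at 2.08 ± 0.74, 1.94 ± 0.73 and 1.90 ± 0.72 FPKM and passed in no comparison. PPP5C, the single gene of PP5, did not exceed 0.22 FPKM.

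Of the 24 members above 0 but under the filter, the exact two-sided permutation test gave its smallest p of 0.0286 for 5 members that were lower at 46h than at 0h, namely PPP1R10, PPP1R12B, PPP2R3A, PPP2R5D and PPP3CB. At 22h against 0h it did so for 3, PPP1R10, PPP1R36 and PPP2R3A, and at 46h against 22h for 3, PPP1R10, PPP2R5D and PPP3CB. By this exact test no member under the filter was higher at the later time with that p in any comparison. Of all 10620 genes under the filter and above 0, 14.4% were lower and 0.97% higher without overlap at 46h against 0h. The shares were 4.6% lower and 0.725% higher at 22h against 0h, and 8.41% lower and 0.612% higher at 46h against 22h. These p-values are not adjusted for the number of members, and values this low carry an unknown number of reads.

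Genes that work with the phosphatases but lie outside the rule were also read, from lists written by hand. Of 11 tested partners of PP2A, PP4 and PP6, those called between 0h and 46h were 2 higher genes and 1 lower gene, and of all genes tested 16.8% were higher and 39.1% lower. The higher genes were the shugoshins, which hold PP2A at centromeres. SGO1 rose from 32.8 ± 5.17 to 63.3 ± 7.91 FPKM (log2 fold change 0.93, SE 0.17, limma adjusted p = 0.000236). SGO2 rose from 70.9 ± 33.3 to 155 ± 27.4 FPKM (log2 fold change 1.26, SE 0.34, limma adjusted p = 0.00479). PPME1, the PP2A methylesterase, fell by 1.24 on the log2 scale (limma adjusted p = 7.26e-05).

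Of 7 tested partners of PP1, 1 was higher and 2 lower, beside 16.8% and 39.1% of all genes tested. AKAP11 rose by 0.83 between 0h and 46h (limma adjusted p = 0.00219), whereas WDR82 fell by 1.22 (limma adjusted p = 0.000759) and FARP1 fell by 0.96 (limma adjusted p = 0.00168). Of 7 tested partners of calcineurin, 2 were higher and 3 lower, beside 16.8% and 39.1% of all genes tested. RCAN1, a calcineurin inhibitor, rose by 1.41 (SE 0.22, limma adjusted p = 5.33e-05), from 92.6 ± 25.6 to 242 ± 25.3 FPKM, and RCAN3, its relative, rose by 0.70 (limma adjusted p = 0.00286). CALM3, which encodes calmodulin, the activator of calcineurin, fell by 5.25 (SE 0.26, limma adjusted p = 6.29e-10), from 135 ± 22.7 to 2.69 ± 1.11 FPKM. CALM2, at a far higher level, fell by 0.83 (limma adjusted p = 0.0188), from 3481 ± 1635 to 1827 ± 202 FPKM. CHP1, a homologue of calcineurin B, fell by 1.44 (SE 0.22, limma adjusted p = 4.69e-05), from 17.5 ± 3.43 to 5.77 ± 0.82 FPKM. Of 13 other serine/threonine phosphatases tested outside the rule, 1 was higher and 4 lower, beside 16.8% and 39.1% of all genes tested. PPM1A rose by 0.70 (limma adjusted p = 0.00422), and PPM1G, CTDSP2, ILKAP and PPEF1 fell. PPEF1, which is itself of the PPP family, fell by 0.72 (limma adjusted p = 0.00770). PPM1G fell by 3.16 (SE 0.33, limma adjusted p = 1.36e-06), from 30.8 ± 13.1 to 2.36 ± 0.45 FPKM.

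The 3′ ends of the members were read last, because the cDNA was primed on poly(A) tails, and in maturing oocytes tails are lengthened on transcripts with a cytoplasmic polyadenylation element. The letters TTTTAT or TTTTAAT, forms of that element, and AATAAA or ATTAAA, the hexamer that directs polyadenylation, were searched on the transcript strand only, in the last 100 bases of RefSeq transcripts with at least that much 3′ UTR. TTTTAAT can overlap AATAAA. Of the 35 members tested 32 had a RefSeq transcript and 28 a window of that length. The sequences below are 30 bases of the windows of 5 members, with both kinds of letters in capitals, and are shown for genes that moved at 46h. The windows of ENSA and PPP2R2B also hold AATAAA, which the 30 bases printed do not include whole.
ENSA: TTTTATtggggtttgggaaaagggaagaaa
PPP6C: aaatggatatAATAAAttggtctaaagggc
PPP1CC: gtacatttgatctttTTTTAATtcagtaca
PPP2R2B: TTTTAATtaagcaattccacttgattgaaa
PPP4C: aaaaaaaatctAATAAAagaagaaaaatga
On Sscrofa11.1 they lie at chr4:98535587-98535616 for ENSA on the plus strand, chr1:265872961-265872990 for PPP6C and chr14:32071472-32071501 for PPP1CC on the minus strand, chr2:147938113-147938142 for PPP2R2B on the minus strand and chr3:18271559-18271588 for PPP4C on the plus strand. The element's letters were in the windows of 9 of the 28 members (32.1%) and of 23.0% of the 5081 genes tested with a window. They were present in 3 of the 7 members higher at 46h than at 0h (PPP1CC and PPP2CB among them) and in 3 of the 6 members lower (ENSA, PPP1R7 and PPP2R2B). Over all genes they were in 30.7% of those higher, 16.9% of those lower and 24.9% of those not called. The hexamer was in 82.1% of the members and 78.1% of all genes. The windows rest on the annotated transcript ends, which may not be those used in oocytes.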

How the data were processed

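Per the paper's methods, the authors trimmed the reads of the 12 libraries, aligned them to the swine genome (Sscrofa11) with STAR and quantified genes with RSEM. The deposited values are FPKM per Ensembl gene identifier and were used as they stand. The authors tested counts, which were not used here, so limma took the place of a count model. The reference name table named 15029 of the 31908 identifiers. The members, gene lists and tests were chosen with earlier results of these data known.

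Values were taken as log2(FPKM + 1), and a mean of 1 FPKM or more was required, which left 7013 genes, fitted with limma 3.58.1 in R 4.3.3 (eBayes with an intensity trend, stage as the only factor). P-values are two-sided and adjusted by Benjamini-Hochberg over these genes, and a gene was called at an adjusted p under 0.05 and a fold change over 1.5. For members under the filter log2(FPKM + 1) was compared by exact permutation (two-sided) over the 70 arrangements of 4 against 4 libraries. Errors of FPKM are SD over 4 libraries. All catalytic, scaffold, B55, B56, B double prime, calcineurin, PP4, PP6 and Greatwall genes among the members analysed were named, and of the other members chiefly those called in a comparison. Outside the rule, up to 3 genes a list with the largest called change were named in each direction, and PPEF1 was added after its values were seen. Some listed genes and a sequence are not reported here. Sequences were read from RefSeq Sscrofa11.1 with Python 3.11.15. The fit was tested on simulated data. The alternatives covered the pseudocount, the filter, scaling, the libraries fitted, the variance trend, the replicate block, the fold threshold, and each library left out in turn.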

Additional observations from a re-analysis of the deposited data

Results flagged for a closer look

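Among 105 groups of 4 libraries, 3 held a library whose gap to the others passed Dixon's critical value for 4 samples, where chance flags about 1 in 20 groups. ENSA was at 12.94 FPKM in replicate 3 of 22h, and the other 22h libraries were at 8.09, 8.15 and 8.48. PPP1R11 was at 3.94 FPKM in replicate 4 of 0h, and the other 0h libraries were at 1.28, 1.46 and 1.69. PPP1R3D, a glycogen-targeting subunit of PP1, was at 3.35 FPKM in replicate 2 of 22h, and the other 22h libraries were at 1.93, 2.07 and 2.11.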

How the results depend on the processing

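The 45 changes of single members followed here were those with a limma adjusted p under 0.05 in the main fit, with PPP2CA at 46h against 0h added. Calls that other changes gained are not counted. For these 45, 885 of 934 alternative values kept direction and side of the threshold, 21 lost the call, 26 gained it and 2 reversed. Leaving out a library of the stage not compared keeps the log2 fold change as it was, so those values could move only in p. In 26 of the 45 every alternative run kept both. With quantile normalization the change of PPP2R5C at 46h against 0h was 0.23 and that of PPP4R1 was 0.24, both reversed. That scaling moves the median of all genes to 0.37. Of 16 members called at 46h against 0h, the alternatives gave 26 with quantile normalization, and 16 with the replicate block. Higher members were 21 with quantile normalization, lower members 5 with it and 5 when a mean of 5 FPKM or more was required, which leaves fewer genes tested. At 46h against 22h higher members were 10 with median-of-ratios scaling and 13 after quantile normalization, and lower members were 4 with quantile normalization and 4 with the higher filter. No share of all genes is given for these alternatives, so the counts do not compare the members with other genes. The members' median was 0.39 and 0.73 at 46h against 0h, and 0.18 and 0.41 at 46h against 22h, under median-of-ratios scaling and quantile normalization in that order. Leaving out each library in turn gave 16 to 18 members called at 46h against 0h, 12 to 15 at 46h against 22h and 6 to 8 at 22h against 0h. Pairs of libraries with the same replicate number had r of deviations from -0.47 to 0.38, over 0.1 in 3 of 12 pairs. Those of 22h with 46h were at 0.38, 0.0088, 0.21 and 0.13, and pairs of these stages with different numbers ranged from -0.41 to 0.17. Same-number pairs with 0h ranged from -0.47 to 0.08. With so few libraries these values cannot decide whether replicates shared a culture. The replicate block changed no call. Read depth is unknown, so low values have no counting error.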
